A study of Mus musculus with 4 samples.

Results

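The nuclear genes that encode subunits of the mitochondrial respiratory chain and ATP synthase were examined in invariant natural killer T (iNKT) cells of the mouse thymus. Members were the protein-coding genes of the deposited count table whose symbols carry the prefixes of complex I (Nduf followed by a, b, c, s or v and a number), complex II (Sdha to Sdhd), complex III (Uqcr), complex IV (Cox4 to Cox8) and complex V (Atp5). Pseudogenes were left out. This gave 84 of the 53715 genes in the table, 37 in complex I, 4 in complex II, 8 in complex III, 18 in complex IV and 17 in complex V. RNA came from C57BL/6 mice of 6 to 8 weeks, from live thymocytes sorted as binding a CD1d tetramer and carrying TCRβ. It was made into Smart-seq2 libraries, which read full-length cDNA and do not mark strand. The Mettl3KO group, with the genotype Mettl3fl/flCD4-cre, had both Mettl3 alleles floxed and a Cre under the Cd4 promoter. It gave 2 libraries, with 25402792 and 24374587 counts in replicates 1 and 2. The WT group gave 2 libraries, with 28316016 and 25931610 counts; the labels do not say whether WT mice carried floxed alleles or Cre. Cre driven by Cd4 acts in CD4+CD8+ thymocytes and the T cells that descend from them, so it is not particular to iNKT cells. The labels do not state how many mice gave each library, so p-values reflect spread among the libraries alone, which may be technical.

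Respiration in mitochondria passes electrons from NADH through complex I, or from succinate through complex II, to ubiquinone, and then through complex III and cytochrome c to complex IV, which reduces oxygen. Complexes I, III and IV pump protons out of the matrix, and complex V, the ATP synthase, uses the returning protons to make ATP. Thymic iNKT precursors divide and then settle into effector subsets, and METTL3, whose role in their development the study addressed, is the enzyme that writes the m6A mark on mRNA. Complexes I, III, IV and V also hold subunits encoded by mitochondrial DNA, which are reported separately, while all subunits of complex II are nuclear.

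The targeted gene, Mettl3, was at 78.1 and 91.4 CPM in Mettl3KO libraries, against 92.2 and 124 CPM in WT libraries, with log2 fold change -0.35 ± 0.19 (SE; edgeR adjusted p = 0.357). CPM here are counts relative to a library's total, scaled by the TMM method, and the log2 fold change is Mettl3KO over WT. The difference missed the threshold of 0.05, and since the floxed exons are not named in the labels, counts over the whole gene do not check the deletion. Sorted cells carried transcripts that mark T cells and iNKT cells in all 4 libraries. Zbtb16, which encodes PLZF, the lineage factor of iNKT cells, was at 353 and 350.4 CPM in Mettl3KO, against 255 and 192 CPM in WT, with log2 fold change 0.65 ± 0.15 (SE; edgeR adjusted p = 0.0658). Of 7 markers, Slamf6 rose, with log2 fold change 0.80 ± 0.14 (SE; edgeR adjusted p = 0.0358), and Cd44 fell, with log2 fold change -1.14 ± 0.13 (SE; edgeR adjusted p = 0.00746), where 1.09% and 1.51% of all tested genes rose and fell. Neither call held without Mettl3KO replicate 1 or without Mettl3KO replicate 2, and that of Slamf6 was also lost without WT replicate 2. Markers of other cell types, which the TCRβ gate would leave out except for CD4+CD8+ thymocytes, were also measured. Summed B cell markers, mostly H2-Ab1, H2-Aa and Cd74 of MHC class II presentation, were at 1690.3 and 1778 CPM in Mettl3KO, against 82.7 and 191 CPM in WT. Of these 8 genes 7 were tested, with those 3 called higher and Pax5 at 0 counts in every library. Myeloid markers summed to 447 and 489.8 CPM in Mettl3KO, against 113 and 126 CPM in WT. Of these 8 genes 6 were tested, 4 with log2 fold changes above 0 and 2 below, the lowest at -0.65. Lyz2 and Csf1r were called higher. Itgam was at 0.272 and 0.160 CPM in Mettl3KO, against 0 and 0 CPM in WT. The median log2 fold change of tested myeloid markers was 1.78 with total-count scaling and 0.24 with a minimum of 5 CPM in 2 libraries. It was 1.87 without WT replicate 2, and from 0.15 to 0.30 with any other library left out. Markers of CD4+CD8+ thymocytes summed to 1306 and 1180.4 CPM in Mettl3KO, against 787 and 919 CPM in WT. Of these 8 genes edgeR called 0, with 5 higher and 1 lower at an unadjusted p under 0.05, and DESeq2 called 5 higher. Rag1 and Cd4 also passed with total-count scaling (edgeR adjusted p = 0.0431 and 0.039), and 3 genes passed with a minimum of 5 CPM in 2 libraries. The 3 erythroid markers tested summed to 6.49 and 8.75 CPM in Mettl3KO, against 2.99 and 0.916 CPM in WT, with 0 called. Left out in turn, Mettl3KO replicate 1 or 2 ended the calls of H2-Aa and Cd74, and each library except Mettl3KO replicate 2 that of Csf1r. These sums differed between the genotypes together with the subunits, and their part in the subunit values was not tested. In sorted bulk cells a lower share of a cell type and less RNA per cell cannot be told apart. WT replicate 1 stood apart from the other libraries in short transcripts and in the subunits. It also differed from WT replicate 2 in some other mitochondrial lists. Log2 fold changes of named subunits that leaving this library out moved by over 1.5 times are also given without it. Many subunits have processed pseudogenes, so reads of near-identical copies may be split or lost in ways the counts do not show.

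No subunit gene passed the test between genotypes, and most had lower values in Mettl3KO. Of the 84 members, 77 had enough counts to be tested and the other 7 had at most 9 counts in any library. Of the 77, 0 rose and 0 fell at an edgeR adjusted p under 0.05, where 2.59% of the 14185 tested genes passed in either direction. The log2 fold change was below 0 in 67 of the 77, while 48.7% of all tested genes were below 0. Its median over the subunits was -0.32, with quartiles of -0.49 and -0.18, against a median of 0.02 over all tested genes. Both Mettl3KO libraries lay below both WT libraries in 47 of the 77 and above both in 3 (Sdhd, Cox7a2l and Cox6b2), where 24.9% and 25.4% of all tested genes did so. At an unadjusted p under 0.05, 11 subunits (14.3%) were lower and 1 was higher, against 9.69% and 10.5% of all tested genes. DESeq2, which called 4.86% of the genes it tested as lower and 4.78% as higher, called 3 subunits lower (Sdha, Atp5a1 and Atp5f1) and 0 higher. limma voom, which called 1.9% of all tested genes in either direction, called 0. The median of the subunits was -0.31 with DESeq2 size factors and -0.26 with total-count scaling.

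**Figure D1:**
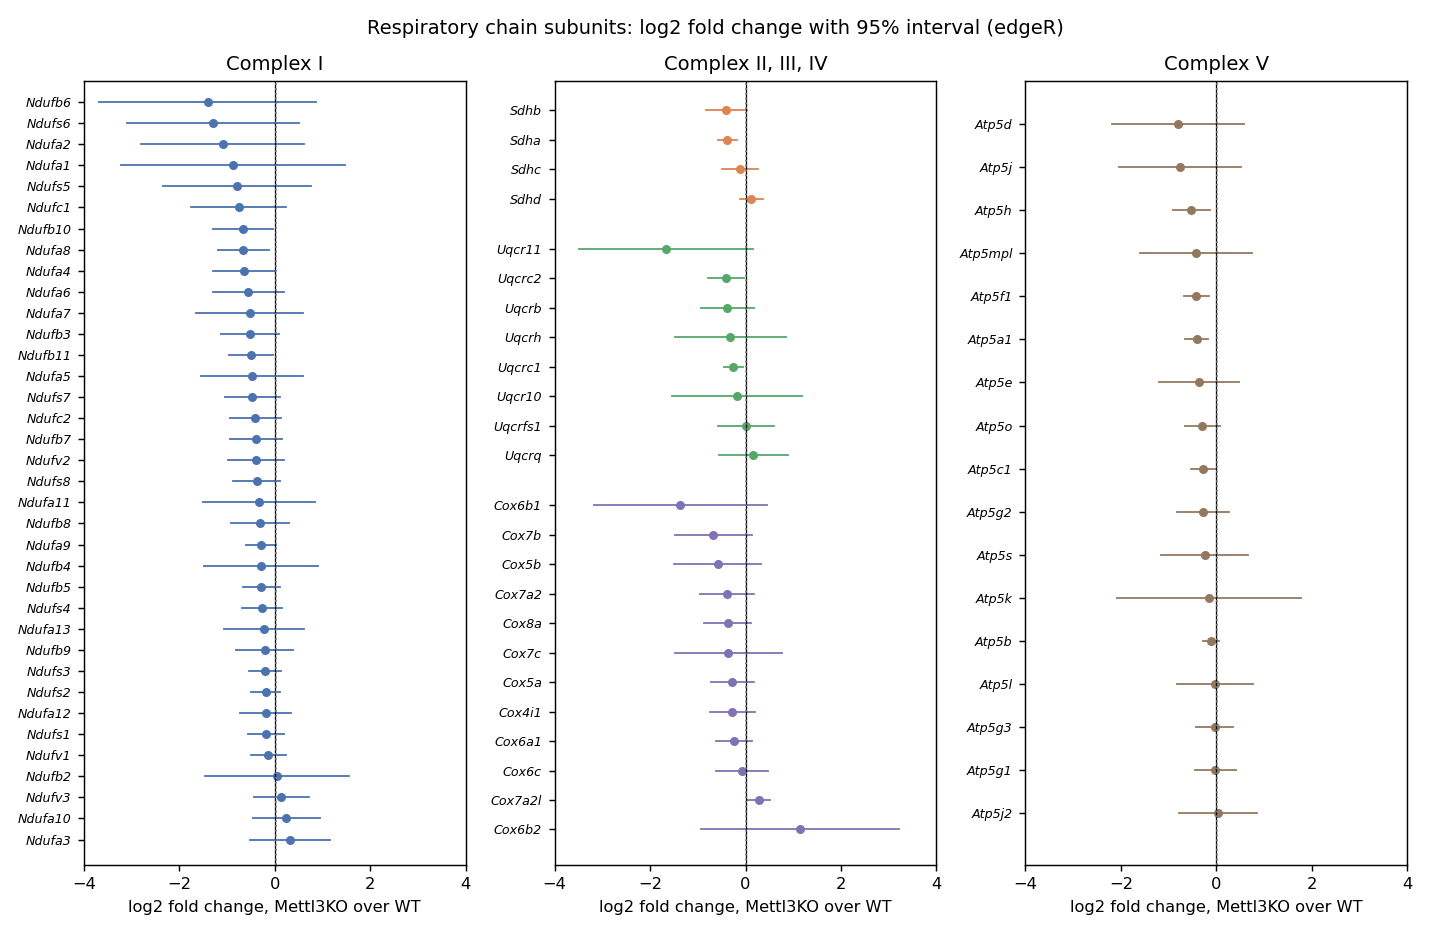
Log2 fold change of each tested subunit, Mettl3KO over WT (x axis), with its 95% interval from edgeR (line), by complex. Each row is 1 gene, the solid line marks 0 and the dotted line the median of all tested genes. Points lie left of 0 for 67 of 77 genes. Wide intervals, such as those of Ndufb6 and Cox6b2, belong to genes of few counts.

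WT replicate 1 stood apart in these genes. It held the highest of the 4 values in 58 of the 77 subunits and lay above WT replicate 2 in 66. The median log2 difference was 0.24 between the WT libraries and 0.03 between the Mettl3KO libraries. Against WT replicate 1 the median log2 difference of the Mettl3KO mean was -0.41, and against WT replicate 2 it was -0.19. Without WT replicate 1 the fit gave a median of -0.18 with 57 of 77 below 0, and without WT replicate 2 a median of -0.41 with 70 of 77 below 0. The subunits together took 0.66% and 0.656% of all counts in Mettl3KO libraries, against 0.757% and 0.697% in the WT libraries. The median log2 difference between WT replicates 1 and 2 was 0.00 over all tested genes and 0.24 in complex IV assembly factors. It was 0.17 in ubiquinone and cytochrome c genes, 0.15 in mitochondrial ribosomal proteins, -0.01 in the citric acid cycle and -0.08 in mitochondrially encoded subunits. WT replicate 1 lay above WT replicate 2 in 364 of the 601 other tested genes under 600 bases, and in 4338 of the 9397 of 2000 bases or more.

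**Figure D2:**
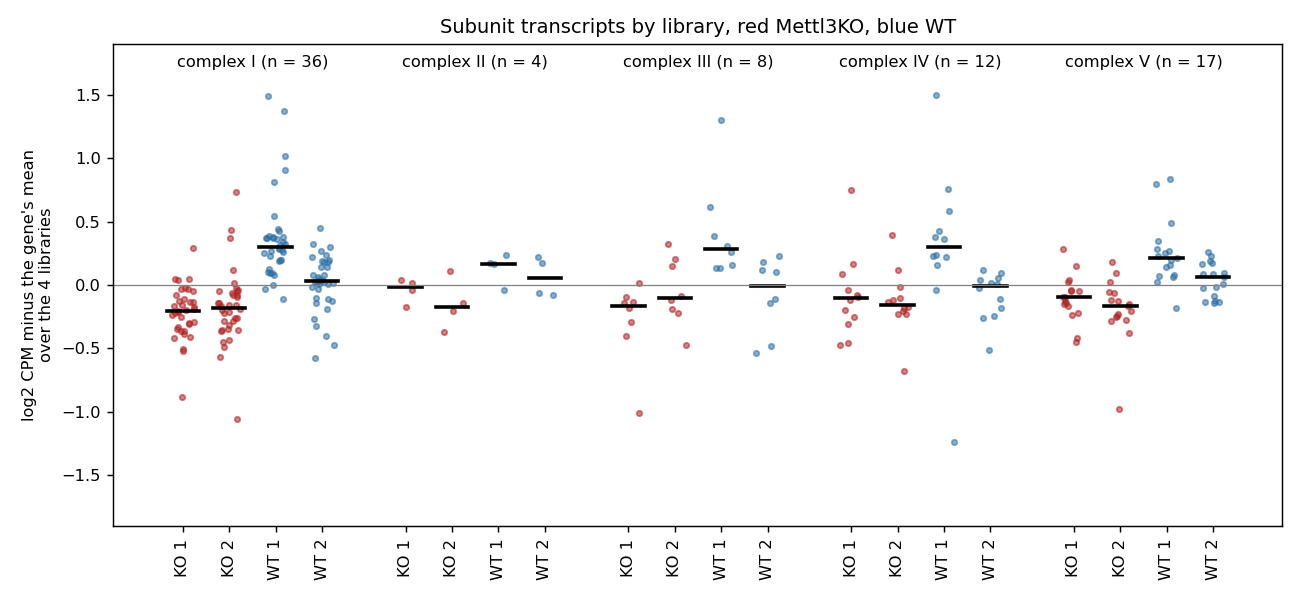
Log2 CPM of each tested subunit minus that gene's mean over the 4 libraries (y axis), by complex and library (x axis), with Mettl3KO in red and WT in blue. Points are genes and black bars medians. Medians over all 77 genes are -0.15 and -0.17 in Mettl3KO libraries, and 0.26 and 0.02 in WT replicates 1 and 2.

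Complex I, which oxidises NADH, has the most subunits of the chain. Of its 37 genes, 36 were tested, and 32 had a log2 fold change below 0, with a median of -0.39. Both Mettl3KO libraries lay below both WT libraries in 25 of the 36, against 24.9% of all tested genes. Summed over the complex, the level was 1198 and 1202 CPM in Mettl3KO, against 1531 and 1354 CPM in WT, a difference of -16.8% between the means. Both Mettl3KO sums lay below both WT sums (exact permutation test over libraries, two-sided p = 0.333, the smallest that 2 against 2 allows). Summed over all tested genes, the same difference was -3.66%, also with both Mettl3KO sums below both WT sums. That value stands beside the summed differences of every complex. The 7 core subunits, which carry the flavin, the iron-sulfur clusters and the quinone site, all had values below 0, between -0.47 and -0.14, and an edgeR adjusted p of at least 0.337. Among them Ndufs7, an iron-sulfur subunit, was at 18.8 and 24.03 CPM in Mettl3KO libraries, against 30.7 and 28.6 CPM in WT libraries, and the groups did not overlap. Ndufs3, the most abundant core subunit per length, was at 135 and 158 CPM in Mettl3KO, against 179 and 157 CPM in WT, with 1 Mettl3KO library above the lower WT library, and its log2 fold change of -0.20 was -0.11 without WT replicate 1.

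The accessory subunits of complex I, which surround the core and stabilise it, had a median of -0.41 over 29 tested genes. Their log2 fold changes ran from -1.40 to 0.32. Both Mettl3KO libraries lay below both WT libraries in 21 of the 29, against 24.9% of all tested genes. The 4 of 36 tested members grouped in complex I with an unadjusted p under 0.05 were Ndufa8, Ndufb10, Ndufb11 and Ndufa4, all lower in Mettl3KO. Of all tested genes, 9.69% were lower at that threshold, so the count is near the general share. Ndufa8, a subunit on the intermembrane side, was at 20.5 and 22.4 CPM in Mettl3KO libraries, against 35.1 and 32.3 CPM in WT libraries, with log2 fold change -0.66 (95% interval -1.19 to -0.12; edgeR adjusted p = 0.167). Ndufb10, of the membrane arm, was at 13.2 and 14.7 CPM in Mettl3KO, against 22.7 and 21.7 CPM in WT, with log2 fold change -0.67 ± 0.27 (SE; edgeR adjusted p = 0.214). Ndufb11, an X-linked subunit of the membrane arm, was at 35.8 and 33.9 CPM in Mettl3KO, against 52.4 and 45.7 CPM in WT, with log2 fold change -0.49 ± 0.20 (SE; edgeR adjusted p = 0.213). In these 3 genes the WT libraries were close to each other and every Mettl3KO library lay below both. Ndufa4, named for complex I but now assigned to complex IV, was at 12.6 and 13.2 CPM in Mettl3KO, against 20.2 and 20.2 CPM in WT, with log2 fold change -0.65 ± 0.28 (SE; edgeR adjusted p = 0.246). The WT libraries were nearly equal in this gene, and its paralogue Ndufa4l2, a gene induced by low oxygen, had 0 counts in all 4 libraries.

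With all 4 libraries, the 2 largest negative values in complex I were those of Ndufb6 and Ndufs6, genes of few counts that were high in WT replicate 1. Ndufb6 was at 0.622 and 0.522 CPM in Mettl3KO, against 2.42 and 0.517 CPM in WT. Ndufs6, which supports the last step of complex I assembly, was at 1.83 and 1.93 CPM in Mettl3KO, against 6.97 and 1.99 CPM in WT. Log2 fold changes were -1.40 ± 0.98 (SE; edgeR adjusted p = 0.482) and -1.29 ± 0.77 (SE; edgeR adjusted p = 0.405). In both genes WT replicate 2 lay close to the Mettl3KO libraries, and without WT replicate 1 the log2 fold change of Ndufb6 was 0.13 and that of Ndufs6 -0.10. The 2 largest positive values with all 4 libraries were those of Ndufa3 and Ndufa10. Ndufa3, a small membrane subunit, was at 10.2 and 15.2 CPM in Mettl3KO, against 10.4 and 9.87 CPM in WT. Ndufa10, a subunit with a kinase-like fold, was at 18.3 and 26.00 CPM in Mettl3KO, against 21.3 and 16.1 CPM in WT. Log2 fold changes of the 2 genes were 0.32 ± 0.36 (SE; edgeR adjusted p = 0.685) and 0.24 ± 0.30 (SE; edgeR adjusted p = 0.727). The groups overlapped in Ndufa10, whose high value was in Mettl3KO replicate 2 and whose log2 fold change was -0.0359 without that library and 0.45 without WT replicate 1. The same library held the high value of Ndufa3, the lower Mettl3KO value lay between the WT values, and without Mettl3KO replicate 2 its log2 fold change was 0.00466.

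Complex II, succinate dehydrogenase, also serves the citric acid cycle, and its 4 genes were all well covered, with 3 values below 0 and 1 above. Sdha (ENSMUSG00000021577.14; GRCm38 chromosome 13, 74322254 to 74350280, minus strand), the flavoprotein that oxidises succinate, was at 503 and 493 CPM in Mettl3KO libraries, against 637 and 661 CPM in WT libraries. Its means were 498 ± 7.36 in Mettl3KO and 649 ± 17.1 CPM in WT (SD, n = 2 each), with log2 fold change -0.38 (95% interval -0.59 to -0.18; edgeR adjusted p = 0.0692), the smallest adjusted p of all 77 subunits. It passed with DESeq2 (adjusted p = 0.00139) and when genes of at least 5 CPM in 2 libraries were tested (edgeR adjusted p = 0.0388), and not with limma voom (adjusted p = 0.0622). Sdhb, the iron-sulfur subunit, was at 54.8 and 43.7 CPM in Mettl3KO, against 66.6 and 63.4 CPM in WT, with log2 fold change -0.40 ± 0.19 (SE; edgeR adjusted p = 0.284). In Sdha and Sdhb each Mettl3KO library lay below both WT libraries. Sdhc, a membrane anchor, was at 91.5 and 80.8 CPM in Mettl3KO, against 101 and 85.2 CPM in WT, with overlapping groups and log2 fold change -0.11, which was 0.00567 without WT replicate 1. Sdhd, the other membrane anchor, was at 297 and 317 CPM in Mettl3KO, against 286 and 279 CPM in WT. Both Mettl3KO libraries lay above both WT libraries, and its log2 fold change was 0.12 (95% interval -0.12 to 0.36; edgeR adjusted p = 0.581). Without Mettl3KO replicate 2 the log2 fold change of Sdhb was -0.25 and that of Sdhd 0.0674. The summed level of the complex was 946 and 934 CPM in Mettl3KO, against 1090.2 and 1088 CPM in WT, a difference of -13.7% (exact permutation p = 0.333, two-sided). Whether Sdha and Sdhd differ from each other in response was not tested.

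Promoter sequences of 4 subunits are shown for the results they carry. Sdha, Atp5f1 and Uqcrc1 were among the 5 subunits with the smallest p, all 5 lower in Mettl3KO, and Cox7a2l had the smallest p of those higher. Each window runs from 250 bases before the RefSeq start to 50 bases after it (GRCm38.p6), 5′ to 3′ on the gene's strand, at chr13:74350191-74350490 (minus strand) for Sdha, chr9:108936398-108936697 (plus strand) for Uqcrc1, chr3:105959214-105959513 (minus strand) for Atp5f1 and chr17:83514284-83514583 (minus strand) for Cox7a2l. The RefSeq start lay 40, 15, 836 and 2997 bases from the gene's start in the GENCODE M21 annotation for Sdha, Uqcrc1, Atp5f1 and Cox7a2l, so the windows of the last 2 do not lie at that start. Capitals mark matches, on either strand, to the core motifs of factors known to act on respiratory chain promoters. These are GCGCA, any base and then GCGC for NRF1, CCGGAA for ETS factors such as GABP, and AAGATGG for YY1.
Sdha: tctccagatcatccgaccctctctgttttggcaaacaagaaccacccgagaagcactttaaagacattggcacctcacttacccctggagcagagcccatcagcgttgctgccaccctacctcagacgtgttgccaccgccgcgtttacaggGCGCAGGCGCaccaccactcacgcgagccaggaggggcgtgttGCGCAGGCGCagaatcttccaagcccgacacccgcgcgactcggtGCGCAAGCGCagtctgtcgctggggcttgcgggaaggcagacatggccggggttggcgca
Uqcrc1: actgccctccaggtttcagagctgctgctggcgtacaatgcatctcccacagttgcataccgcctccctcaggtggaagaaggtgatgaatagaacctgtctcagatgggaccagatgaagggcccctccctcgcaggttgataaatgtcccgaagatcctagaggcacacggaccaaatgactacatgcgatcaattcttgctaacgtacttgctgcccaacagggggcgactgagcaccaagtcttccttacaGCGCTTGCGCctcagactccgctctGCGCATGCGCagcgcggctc
Atp5f1: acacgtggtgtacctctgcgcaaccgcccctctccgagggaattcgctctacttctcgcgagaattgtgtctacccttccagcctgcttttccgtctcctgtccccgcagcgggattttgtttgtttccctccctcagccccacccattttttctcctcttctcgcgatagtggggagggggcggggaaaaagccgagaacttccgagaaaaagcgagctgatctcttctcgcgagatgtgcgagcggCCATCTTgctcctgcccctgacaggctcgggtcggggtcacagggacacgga
Cox7a2l: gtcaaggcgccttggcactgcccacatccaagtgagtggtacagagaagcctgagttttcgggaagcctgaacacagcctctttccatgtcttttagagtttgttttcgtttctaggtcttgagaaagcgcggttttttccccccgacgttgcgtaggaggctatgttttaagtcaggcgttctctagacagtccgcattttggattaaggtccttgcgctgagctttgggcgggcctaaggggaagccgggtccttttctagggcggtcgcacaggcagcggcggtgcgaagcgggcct

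The Sdha window held 3 matches to the NRF1 motif, the Uqcrc1 window held it at 2 places after the start, 1 of them matching on both strands, and the Atp5f1 window held 1 match to the YY1 motif at the start. The Cox7a2l window held none of these letters. Of the 84 members, 68 were matched to a RefSeq promoter. The NRF1 motif was in 17 of these, against 5.2% of all 27025 genes with a promoter. The ETS motif was in 36.8% against 16.7%, and the YY1 motif in 16.2% against 7.3%. The median log2 fold change of tested members was -0.29 in the 17 with the NRF1 motif and -0.36 in the 48 without it. It was -0.36 and -0.32 in the 25 with and the 40 without the ETS motif, and -0.36 and -0.32 in the 11 with and the 54 without the YY1 motif. These are descriptions of letters in the windows, and binding was not measured.

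Complex III, which passes electrons from ubiquinol to cytochrome c, had a median of -0.28 over its 8 genes. Both Mettl3KO libraries lay below both WT libraries in 4 genes of the complex, against 24.9% of all tested genes. Its summed level was 678 and 696 CPM in Mettl3KO, against 839.7 and 798 CPM in WT, a difference of -16.1% (exact permutation p = 0.333, two-sided). Uqcrc1 (ENSMUSG00000025651.14; GRCm38 chromosome 9, 108936633 to 108949623, plus strand), a core protein facing the matrix and the most abundant transcript of the complex per length, was at 542 and 548 CPM in Mettl3KO libraries, against 653 and 645 CPM in WT libraries. The libraries of each genotype lay close together, and the log2 fold change was -0.25 (95% interval -0.45 to -0.05; edgeR adjusted p = 0.159). The other core protein gene, Uqcrc2, was at 64.7 and 62.95 CPM in Mettl3KO, against 90.8 and 79.1 CPM in WT, with log2 fold change -0.41 ± 0.16 (SE; edgeR adjusted p = 0.204). Uqcrfs1, the Rieske iron-sulfur protein that takes electrons from ubiquinol, was at 22.6 and 27.8 CPM in Mettl3KO, against 27.5 and 22.6 CPM in WT, with overlapping groups and log2 fold change 0.00 (95% interval -0.59 to 0.59; edgeR adjusted p = 0.998). Uqcrq, a small subunit, was at 20.99 and 23.95 CPM in Mettl3KO, against 24.8 and 14.9 CPM in WT, also overlapping, with log2 fold change 0.16 ± 0.31 (SE; edgeR adjusted p = 0.83) that was -0.15 without WT replicate 2. In Uqcrc2, as in Uqcrc1, each Mettl3KO library lay below both WT libraries. Uqcr11, the smallest subunit of the complex, had few counts, with log2 fold change -1.66 ± 0.78 (SE; edgeR adjusted p = 0.289), at 0.777 and 1.16 CPM in Mettl3KO, against 4.16 and 1.87 CPM in WT. Its groups did not overlap, and WT replicate 1 was the highest. Uqcrb, Uqcrh and Uqcr10 had log2 fold changes of -0.38, -0.32 and -0.18, with overlap in the last 2. With WT replicate 1 left out, log2 fold changes in this complex were -0.96 for Uqcr11, -0.0366 for Uqcrh, 0.54 for Uqcr10, 0.58 for Uqcrq and 0.15 for Uqcrfs1.

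Complex IV, cytochrome c oxidase, was the one complex whose summed level was not lower in both Mettl3KO libraries. Its sum was 848 and 825 CPM in Mettl3KO, against 878 and 731 CPM in WT, of which Cox7a2l made up most. The log2 ratio of the sums was 0.06, and -0.07 without WT replicate 2 (exact permutation p = 1, two-sided). Without Cox7a2l, a sum chosen after its values were seen, the rest of the complex was at 280.3 and 277 CPM in Mettl3KO, against 387 and 304 CPM in WT. Both Mettl3KO sums then lay below both WT sums, with a log2 ratio of -0.31, and -0.14 without WT replicate 1. Of its 18 genes 12 were tested, with a median log2 fold change of -0.32, and 10 were below 0. Both Mettl3KO libraries lay below both WT libraries in 6 of the 12, against 24.9% of all tested genes. Cox7a2l was at 568 and 547 CPM in Mettl3KO libraries, against 491 and 427 CPM in WT libraries. Both Mettl3KO libraries lay above both WT libraries, with log2 fold change 0.28 (95% interval 0.04 to 0.52; edgeR adjusted p = 0.187), which was 0.18 without WT replicate 2. Its product is related to COX7A, but it serves as an assembly factor that joins complexes III and IV into supercomplexes, and C57BL/6 mice make a shortened form of it. It had the smallest p of the 10 subunits with a positive value. Cox4i1, the largest nuclear subunit of the complex, was at 39.1 and 34.3 CPM in Mettl3KO, against 47.2 and 41.4 CPM in WT, with log2 fold change -0.27 ± 0.20 (SE; edgeR adjusted p = 0.506). Cox6a1 was at 68.2 and 67.97 CPM in Mettl3KO, against 86.1 and 74.9 CPM in WT, with log2 fold change -0.24 ± 0.16 (SE; edgeR adjusted p = 0.452). In both genes each Mettl3KO library lay below both WT libraries. Cox8a was at 40.96 and 45.3 CPM in Mettl3KO, against 63.4 and 47.9 CPM in WT, with log2 fold change -0.37 ± 0.21 (SE; edgeR adjusted p = 0.376), and the groups did not overlap. Cox7a2, the common partner of Cox7a1, was at 22.4 and 22.8 CPM in Mettl3KO, against 33.1 and 25.8 CPM in WT, with log2 fold change -0.39 ± 0.25 (SE; edgeR adjusted p = 0.437), again without overlap. Cox7b, an X-linked subunit, was at 9.17 and 11.1 CPM in Mettl3KO, against 18.96 and 13.1 CPM in WT, with log2 fold change -0.67 ± 0.35 (SE; edgeR adjusted p = 0.333). Cox5a, Cox5b, Cox6c and Cox7c had log2 fold changes of -0.28, -0.58, -0.07 and -0.36, and of these only Cox5a had both Mettl3KO libraries below both WT libraries. With WT replicate 1 left out, log2 fold changes were 0.019 for Cox5b, 0.15 for Cox6c, -0.06 for Cox7c, -0.15 for Cox6a1, -0.16 for Cox8a, -0.20 for Cox7a2 and -0.38 for Cox7b.

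Several subunits of complex IV exist as paired genes of which 1 is used in most tissues and the other in muscle, lung, testis or another tissue. In both genotypes the common forms of Cox4i, Cox6a, Cox7a, Cox7b and Cox8 were the ones covered in these libraries. The muscle and heart forms Cox7a1 and Cox8b, and the testis form Cox7b2, had 0 counts in all 4 libraries, which allows up to 0.107 to 0.12 CPM by counting error at a limit of 3 counts. Cox4i2, the lung form, had 1 and 0 counts in Mettl3KO, against 5 and 0 in WT. Cox6a2, a muscle form, had 2 and 3 counts in Mettl3KO, against 0 and 0 in WT. Cox8c had 0 and 9 counts in Mettl3KO, against 0 and 0 in WT. The testis form Cox6b2 was the one alternative form with enough counts to test, at 1.36 and 1.04 CPM in Mettl3KO, against 0.285 and 0.836 CPM in WT. Both Mettl3KO libraries lay above both WT libraries, on 35 and 26 counts in Mettl3KO, against 8 and 21 in WT, and its log2 fold change was 1.14 (95% interval -0.94 to 3.22; edgeR adjusted p = 0.54), which was 0.51 with WT replicate 1 left out and 2.06 with WT replicate 2 left out. Its common counterpart Cox6b1 was at 2.76 and 2.13 CPM in Mettl3KO, against 9.85 and 2.39 CPM in WT. Its log2 fold change was -1.36 ± 0.78 (SE; edgeR adjusted p = 0.383), and it was 0.02 without WT replicate 1, the library that held the high value. Cox6b2 was thus highest in a Mettl3KO library and Cox6b1 in a WT library, and neither passed the test.

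Complex V had a median of -0.28 over 17 genes, all tested, and 16 were below 0. Both Mettl3KO libraries lay below both WT libraries in 10 genes of the complex, against 24.9% of all tested genes. Its summed level was 2842 and 2762 CPM in Mettl3KO, against 3284 and 3225 CPM in WT, a difference of -13.9% (exact permutation p = 0.333, two-sided). The catalytic head is built from the products of Atp5a1, Atp5b, Atp5c1, Atp5d and Atp5e. Atp5a1, the α subunit, was at 463 and 416 CPM in Mettl3KO libraries, against 603 and 568 CPM in WT libraries, with log2 fold change -0.41 (95% interval -0.65 to -0.18; edgeR adjusted p = 0.0788). It passed with DESeq2 (adjusted p = 0.00338) and when genes of at least 5 CPM in 2 libraries were tested (edgeR adjusted p = 0.0417). Its groups did not overlap. Atp5b, the catalytic β subunit and the most abundant subunit transcript of all per length, was at 1531 and 1508 CPM in Mettl3KO, against 1600.2 and 1672 CPM in WT. Each Mettl3KO library lay below both WT libraries, but by little, with log2 fold change -0.11 (95% interval -0.27 to 0.06; edgeR adjusted p = 0.464). Atp5c1, the rotating γ subunit, was at 305 and 309 CPM in Mettl3KO, against 391.5 and 352 CPM in WT, with log2 fold change -0.28 ± 0.10 (SE; edgeR adjusted p = 0.196). Atp5d, the δ subunit, had few counts, at 4.74 and 2.13 CPM in Mettl3KO, against 7.65 and 4.22 CPM in WT, with overlapping groups and log2 fold change -0.80 ± 0.59 (SE; edgeR adjusted p = 0.506). That value was -0.30 without WT replicate 1, -1.50 without Mettl3KO replicate 1 and -0.35 without Mettl3KO replicate 2.

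The 4 genes of the peripheral stalk, which holds the head still, lay in both Mettl3KO libraries below both WT libraries, with log2 fold changes between -0.76 and -0.29. Of all tested genes, 24.9% lay below in this way. Atp5f1 (ENSMUSG00000000563.17; GRCm38 chromosome 3, 105942698 to 105960099, minus strand), the b subunit, was at 185 and 174 CPM in Mettl3KO libraries, against 244 and 237 CPM in WT libraries, with log2 fold change -0.42 (95% interval -0.68 to -0.16; edgeR adjusted p = 0.102), and passed with DESeq2 (adjusted p = 0.0114). Atp5h, the d subunit, was at 60.9 and 74.9 CPM in Mettl3KO, against 97.8 and 97.5 CPM in WT, with log2 fold change -0.53 ± 0.16 (SE; edgeR adjusted p = 0.136). Atp5o, which ties the stalk to the head, was at 77.6 and 68.05 CPM in Mettl3KO, against 92.05 and 85.98 CPM in WT, with log2 fold change -0.29 ± 0.16 (SE; edgeR adjusted p = 0.356). Atp5j, coupling factor 6, was at 3.23 and 3.85 CPM in Mettl3KO, against 7.75 and 4.02 CPM in WT, with log2 fold change -0.76 ± 0.54 (SE; edgeR adjusted p = 0.498), which was -0.20 without WT replicate 1. The c subunit of the proton-driven ring is made from 3 genes with the same mature protein. Atp5g3 was at 80.3 and 84.4 CPM in Mettl3KO, against 92.5 and 75.8 CPM in WT, with log2 fold change -0.03. Atp5g1 was at 56.6 and 52.96 CPM in Mettl3KO, against 60.7 and 50.2 CPM in WT, with log2 fold change -0.02, and in both genes the groups overlapped. Atp5g2 was at 26.9 and 25.5 CPM in Mettl3KO, against 34.9 and 28.2 CPM in WT, with log2 fold change -0.27 and no overlap. The values of Atp5g3 and Atp5g1 were 0.02 and 0.03 with total-count scaling. Atp5j2, the f subunit, was at 14.1 and 9.55 CPM in Mettl3KO, against 12.2 and 10.9 CPM in WT, overlapping, with log2 fold change 0.03. Atp5s, whose symbol the rule takes in, encodes coupling factor B, which is not a subunit of the enzyme, and was at 6.68 and 6.42 CPM in Mettl3KO, against 7.50 and 8.08 CPM in WT. It had log2 fold change -0.25 ± 0.39 (SE; edgeR adjusted p = 0.79). The remaining genes, Atp5e of the head and Atp5k, Atp5l and Atp5mpl of the membrane part, had log2 fold changes of -0.36, -0.15, -0.04 and -0.42, the last with both Mettl3KO libraries below both WT libraries. With WT replicate 1 left out, log2 fold changes were -0.0726 for Atp5mpl, -0.18 for Atp5e, -0.25 for Atp5l, 0.11 for Atp5j2, 0.11 for Atp5g1, -0.12 for Atp5g2 and 0.11 for Atp5g3.

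**Figure D3:**
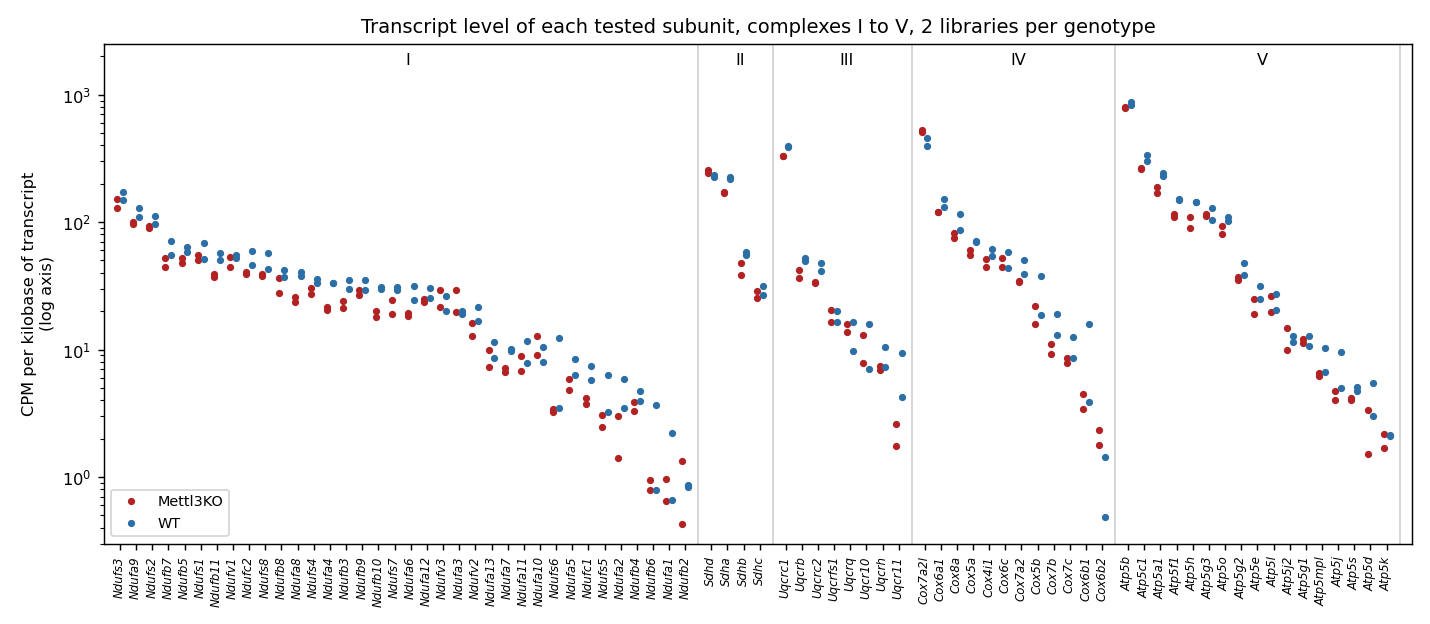
CPM per kilobase of the principal transcript (y axis, log scale) of each tested subunit, ordered by its WT mean within complexes I to V (x axis). Each gene has 2 Mettl3KO libraries (red, left) and 2 WT libraries (blue, right). Levels run from 0.846 for Ndufb2, whose principal transcript has 4371 bases, to 854.0 for Atp5b in the WT means. The order is much alike in both genotypes.

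Levels per length differed far more between subunits than between genotypes. In CPM per kilobase of the principal transcript, Atp5b was at 793 in Mettl3KO and 854 in WT. It was followed by Cox7a2l at 518 in Mettl3KO and 427 in WT, and by Uqcrc1 at 329.7 in Mettl3KO and 393 in WT. Within complex II Sdhd was at 249 in Mettl3KO and 229.5 in WT, and Sdha at 172 in Mettl3KO and 224 in WT. Sdhd stood above Sdha in both Mettl3KO libraries. In the WT libraries the values of the 2 genes overlapped, at 233 and 226 for Sdhd and 219.5 and 228 for Sdha. At the low end were Ndufb2, Cox6b2 and Ndufa1 with WT means of 0.846, 0.958 and 1.44. The place of Ndufb2 rests on a principal transcript of 4371 bases. Its WT mean was 3.70 CPM, against 0.602 CPM for Ndufa1, whose transcript has 419 bases. The ratio of the highest to the lowest WT level was 190.0 in complex I, 7.83 in complex II, 57.9 in complex III, 445.5 in complex IV and 401.4 in complex V. In complex IV these ends were Cox7a2l, an assembly factor, and the testis form Cox6b2. The other tested genes of that complex ran from 9.90 for Cox6b1 to 141 for Cox6a1 in WT. Reads split or lost among near-identical copies may also affect levels compared between genes. Across the 77 genes the order of levels was shared by the genotypes (Spearman rho 0.988, a description over genes of the same libraries).

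Grouped by transcript length, WT replicate 1 stood furthest from WT replicate 2 in the shortest subunits. The difference also varied with depth, as given below. Its value was at least 2-fold that of WT replicate 2 in 7 subunits, Ndufa1, Ndufb6, Ndufs6, Uqcr10, Uqcr11, Cox5b and Cox6b1, whose principal transcripts are 419 to 865 bases long. In the 18 subunits under 600 bases the median log2 difference between WT replicates 1 and 2 was 0.37, and in the 601 other tested genes of that length it was 0.18. In the 7 subunits of 2000 bases or more it was 0.24, against -0.04 in the other genes. The median log2 fold change between genotypes was -0.36 in subunits under 600 bases, -0.42 at 600 to under 1000, -0.25 at 1000 to under 2000 and -0.11 in the longest. In other tested genes of these lengths it was -0.05, -0.15, -0.02 and 0.04. Across subunits the Spearman rho of transcript length with the log2 fold change was 0.305, and 0.015 when the Mettl3KO mean was set against WT replicate 2 alone, as descriptions over genes that share libraries. With the trend of counts with length removed in each library, the median of the subunits was -0.25 using exonic gene length, and -0.19 using transcript length, a fit chosen after seeing the data.

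**Figure D4:**
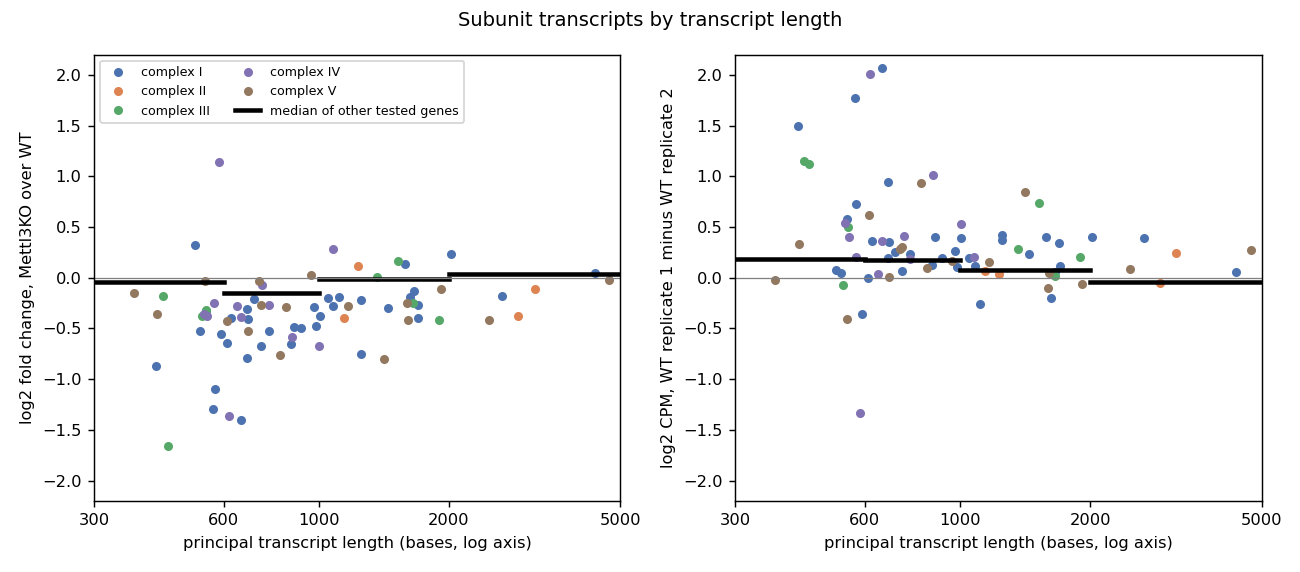
Length of the principal transcript (x axis, log scale) against the log2 fold change, Mettl3KO over WT (left), and against the log2 CPM difference between WT replicates 1 and 2 (right), for the 77 tested subunits coloured by complex. Black bars are medians of the other tested genes in 4 length bins divided at 600, 1000 and 2000 bases. The largest differences between the WT libraries, such as 2.07 for Ndufb6 and 2.01 for Cox6b1, both with means under 10 CPM, lie at short transcripts.

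Precision followed the counts. The 23 subunits with a mean of 50 CPM or more had a median SE of 0.16 on the log2 scale, a median log2 fold change of -0.25 and 21 values below 0. In the 32 subunits from 10 to under 50 CPM the median SE was 0.25, the median log2 fold change -0.37 and 26 values were below 0. In the 22 under 10 CPM the median SE was 0.58, the median -0.50 and 20 values were below 0. The median log2 difference between WT replicates 1 and 2 was 0.11 at 50 CPM or more, 0.27 at 10 to under 50 and 0.60 under 10 CPM. Median transcript lengths were 1604, 750.5 and 598.5 bases in that order, so length and depth were not separated.

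Gene lists around the chain differed in their medians. Subunits encoded by mitochondrial DNA, which have nuclear copies that may share reads, had a median log2 fold change of -0.26 over 12 tested genes of 13. Of these, 0 were called by edgeR. Both Mettl3KO libraries lay below both WT libraries in 6 of the 12, against 24.9% of all tested genes. The median was -0.11 without Mettl3KO replicate 1, -0.15 with the exonic length trend removed and -0.08 with the 5 CPM minimum. mt-Atp6, the subunit that forms the proton channel of complex V, was at 3.89 and 6.38 CPM in Mettl3KO, against 17.1 and 14.8 CPM in WT, with log2 fold change -1.65 ± 0.39 (SE; edgeR adjusted p = 0.0754). It was called lower by DESeq2 (adjusted p = 0.0136) and with the 5 CPM minimum (edgeR adjusted p = 0.042). mt-Co1, the catalytic subunit of complex IV, was at 2216 and 2641 CPM in Mettl3KO, against 2919 and 3023 CPM in WT, with log2 fold change -0.29 ± 0.09 (SE; edgeR adjusted p = 0.139). mt-Cytb, of complex III, was at 1919 and 2099.6 CPM in Mettl3KO, against 1829 and 2031 CPM in WT, with overlapping groups. mt-Co2 and mt-Co3 were under 1 CPM in every library, far from mt-Co1, and mt-Atp6 was also far below it. The cause of these low levels was not tested, and it limits what the fold change of mt-Atp6 can show. Summed over all 13 genes, the level was 6024 and 6783 CPM in Mettl3KO, against 6780 and 7138 CPM in WT, with overlapping groups. Enzymes of the citric acid cycle had a median of -0.21, with 0 called. Of the 13, 11 were below 0, against 48.7% of all tested genes. Both Mettl3KO libraries lay below both WT libraries in 9, against 24.9%. Cs, citrate synthase, was at 98.9 and 98.1 CPM in Mettl3KO, against 131 and 124 CPM in WT, with log2 fold change -0.37 ± 0.13 (SE; edgeR adjusted p = 0.176). Idh3g, of isocitrate dehydrogenase, was at 168 and 195 CPM in Mettl3KO, against 264 and 201 CPM in WT, with log2 fold change -0.36 ± 0.16 (SE; edgeR adjusted p = 0.268). Ogdh, of the oxoglutarate dehydrogenase complex, had a positive value of 0.21.

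Factors that assemble the complexes had medians of -0.04 over 15 for complex I, 0.07 over 4 for complex II, 0.05 over 5 for complex III, 0.09 over 21 for complex IV and -0.00486 over 3 for complex V, and 0 of them passed the test. Single libraries moved these medians. Complex III factors were at -0.30 without WT replicate 2, where 6 genes rather than 5 were tested. With all 4 libraries and no low-count filter, the median over 6 was -0.00956. Complex IV factors were at -0.06 without Mettl3KO replicate 1 and 0.23 without Mettl3KO replicate 2, and complex I factors at -0.13 without Mettl3KO replicate 1 and 0.14 without WT replicate 1. Tmem186, of the complex I assembly module, was at 14.9 and 10.95 CPM in Mettl3KO, against 28.95 and 30.1 CPM in WT, with log2 fold change -1.19 ± 0.27 (SE; edgeR adjusted p = 0.0698). Foxred1, another complex I factor, was at 76.02 and 86.02 CPM in Mettl3KO, against 57.9 and 50.04 CPM in WT, with log2 fold change 0.58 ± 0.17 (SE; edgeR adjusted p = 0.123). DESeq2 called both, Tmem186 lower and Foxred1 higher (adjusted p = 0.00898 and 0.0377). Ubiquinone synthesis genes and cytochrome c had a median of 0.07 over 14, with quartiles of -0.47 and 0.33 and 0 called. Of these, 9 were above 0 and 5 below. The 2 genes with the smallest p, Coq10a and Coq6, had log2 fold changes of -0.97 and -0.92. With 1 library left out, the median ranged from -0.09 (without Mettl3KO replicate 1) to 0.16 (without WT replicate 1). Subunits or inhibitors that the symbol rule does not take in, such as Cyc1, the cytochrome of complex III, had a median of -0.07 over 4 (1 of 5 symbols found no match), with 0 called. Cyc1 was at 199 and 182 CPM in Mettl3KO, against 235 and 197 CPM in WT, with log2 fold change -0.18 ± 0.13 (SE; edgeR adjusted p = 0.504).

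Mitochondrial ribosomal proteins, also encoded in the nucleus, had a median of -0.01 over 77 tested genes, with 42 below 0. Both Mettl3KO libraries lay below both WT libraries in 18 (23.4%) and above both in 17 (22.1%). Of all tested genes, 24.9% and 25.4% did so. Mrpl43 was at 117 and 94.2 CPM in Mettl3KO, against 59.3 and 53.2 CPM in WT. It rose, with log2 fold change 0.91 ± 0.18 (SE; edgeR adjusted p = 0.0473), and was the 1 gene of these lists that passed. It did not pass without any 1 of the 4 libraries, with edgeR adjusted p from 0.129 to 0.255. Regulators of mitochondrial transcription and biogenesis had a median of -0.01 over 15 tested of 16, with 0 called. Pprc1, a coactivator of NRF1, was at 109 and 89.7 CPM in Mettl3KO, against 57.02 and 62.9 CPM in WT, with log2 fold change 0.73 ± 0.17 (SE; edgeR adjusted p = 0.0734), and was called by DESeq2 (adjusted p = 0.00439). Ppargc1b, a related coactivator, was at 38.6 and 27.00 CPM in Mettl3KO, against 18.96 and 18.7 CPM in WT, with log2 fold change 0.80 ± 0.27 (SE; edgeR adjusted p = 0.158). Nrf1, Gabpa and Yy1, whose motifs were searched in the promoters, had log2 fold changes of 0.24, -0.01 and -0.19 and edgeR adjusted p of 0.447, 0.982 and 0.618. No test set the subunits against these lists.

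**Figure D5:**
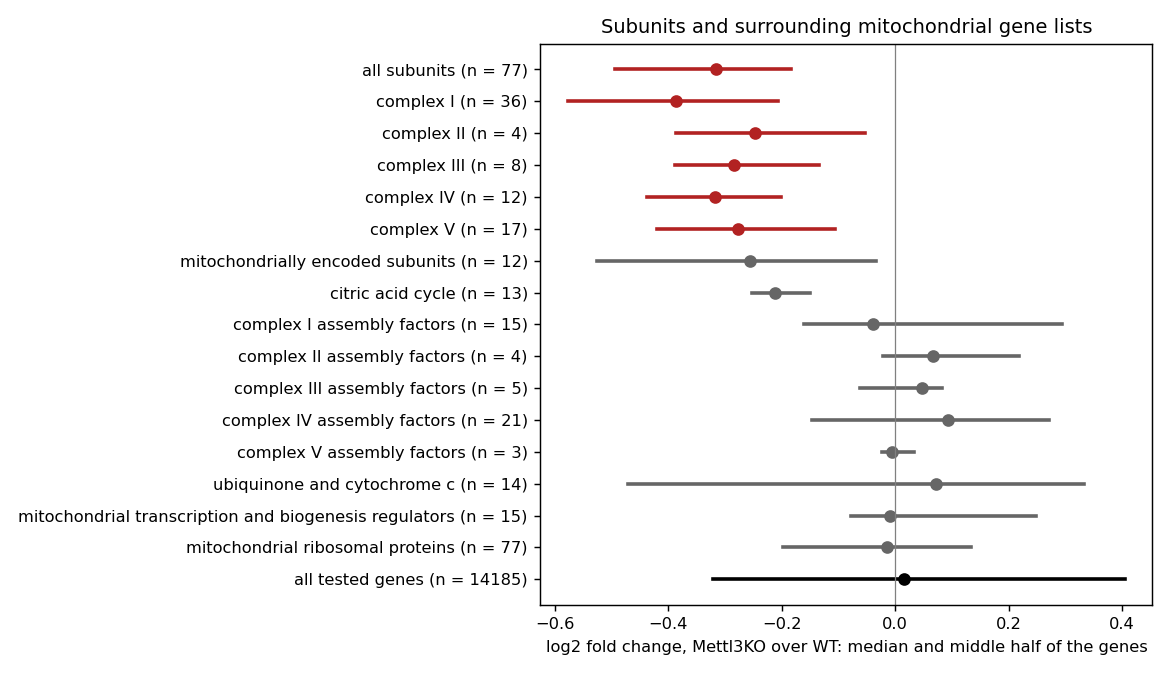
Median log2 fold change, Mettl3KO over WT (x axis, points), with the quartiles of the genes (bars), for all subunits and each complex (red), for the surrounding mitochondrial lists (grey) and for all tested genes (black). The number n is the number of genes tested. Medians of the 5 complexes lie between -0.39 and -0.25, and that of mitochondrial ribosomal proteins at -0.01.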

How the data were processed

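Smart-seq2 RNA libraries of sorted thymic iNKT cells were analysed, 2 from Mettl3KO and 2 from WT mice, grouped by the labels. The deposited table gives the authors' raw read counts per gene, 1 column per library. Per the submitters' processing notes, FastQC 0.11.5, STAR 2.6.0a, HTSeq 0.6.1, DESeq2 1.18.1 and mm10 were used; the sources used here do not give their roles, the annotation release, the strand setting or filters. Genes kept by filterByExpr were fitted with edgeR 4.0.16 (quasi-likelihood, TMM, 2 residual degrees of freedom), with Benjamini-Hochberg adjustment over all 14185 tested genes and a threshold of 0.05. The code was tested on simulated data. Intervals of fold changes use the fitted spread between libraries, and the limit of 3 counts (0.107 to 0.12 CPM) covers counting error only. Symbols, gene types, lengths and coordinates came from GENCODE M21 (GRCm38), whose ID versions matched 72 of the 84 members; 12 pseudogene or noncoding rows matching the symbol rule were left out. Promoters came from RefSeq GRCm38.p6.

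Alternatives were DESeq2 1.42.0, DESeq2 size factors or total-count scaling within edgeR, no low-count filter, at least 5 CPM in 2 libraries, limma 3.58.1 voom, removal of a length trend, a replicate block and leaving out each library. The members and all 16 gene lists were chosen with earlier results of these data known. The genes named were, by rule, Mettl3, subunits passing the test (0), the 2 largest positive and 2 largest negative log2 fold changes per complex, tissue-specific isoform pairs, and the called genes of each list or else up to 2 with the smallest p. Other subunits and list genes named were chosen after their values were seen.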

Additional observations from a re-analysis of the deposited data

How the results depend on the processing

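Across the alternatives that kept all 4 libraries, 0 subunits were called higher. A minimum of 5 CPM in 2 libraries called 2 of 60 lower (Sdha and Atp5a1), where 3.99% of all tested genes were. DESeq2 called 3 of 77 lower, where 4.86% of the genes it tested were. The rest of these alternatives called 0 lower. Genes called higher and lower were 154 and 214 in the reported fit, 335 and 392 with the 5 CPM minimum, and 665 and 676 with DESeq2. Genes called higher were 93 with no low-count filter and 101 with limma voom. For the mitochondrial lists the number called higher was 1 as reported, 2 with total-count scaling, 0 with no filter or with limma voom, 5 with the 5 CPM minimum and 6 with DESeq2, and the number called lower was 2 with the 5 CPM minimum and 2 with DESeq2. For the cell marker lists the number called higher was 6 as reported, 10 with the 5 CPM minimum and 11 with DESeq2, and the number called lower was 1 as reported and 2 with either. The median log2 fold change after removing the transcript length trend was -0.19 over all subunits, -0.25 in complex I, -0.12 in complex IV and -0.15 in complex V. With total-count scaling the log2 ratio of summed CPM was -0.14 over all subunits, -0.16 in complex II, -0.20 in complex III and -0.16 in complex V.

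Mettl3KO and WT libraries of the same number shared only that number. Over the 14185 tested genes, the deviations of WT and Mettl3KO replicate 1 from their genotype means had a correlation of -0.0125. With a replicate block, 7 genes were called higher and 26 lower, 0 in the mitochondrial lists, and 3 higher and 0 lower in the cell marker lists, with 0 subunits and a subunit median of -0.31.

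Signs turned in genes close to 0. Values were 0.0307 for Atp5g1, 0.018 for Atp5g3 and 0.0115 for Atpaf1 with total-count scaling, 0.15 for Atp5g3 with the transcript length trend removed, and -0.000583 for Uqcrfs1 with no filter and -0.000222 with limma voom. When 1 library was left out in turn, with a lone library assumed to vary like the others, genes called higher ranged from 13 (without Mettl3KO replicate 2) to 40 (without WT replicate 1) and genes called lower from 26 (without Mettl3KO replicate 1) to 132 (without WT replicate 1). In the mitochondrial lists 0 were called higher in each case, and in the cell marker lists 2 to 6 were called higher and 0 to 2 lower. The subunit median ranged from -0.41 without WT replicate 2 to -0.18 without WT replicate 1, that of complex I from -0.54 to -0.21, of complex II from -0.30 to -0.14, of complex III from -0.43 to -0.14 and of complex IV from -0.46 to -0.10. The log2 ratio of summed CPM ranged from -0.24 to -0.17 over all subunits, from -0.36 to -0.18 in complex I, from -0.22 to -0.21 in complex II and from -0.0739 to 0.18 in complex IV. Single genes ranged from -2.07 to 0.13 for Ndufb6, from -2.01 to 0.0249 for Cox6b1, from -0.0359 to 0.47 for Ndufa10, from -0.16 to 0.15 for Uqcrfs1, from -0.15 to 0.58 for Uqcrq, from -0.28 to 0.28 for Atp5j2, from -0.15 to 0.11 for Atp5g1, from -0.17 to 0.11 for Atp5g3, from -0.23 to 0.00567 for Sdhc and from -0.17 to 0.66 for Bcs1l. The cause of these differences was not tested. The erythroid median could not be computed with the 5 CPM minimum, which left no gene of that list. Subunits under 10 CPM had the widest errors, so their depth limits what can be seen in single genes.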
